A study of Mus musculus with 8 samples.

Results

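The 39 genes described here are non-collagen genes of the otic mesenchyme, its fibrocytes and the otic capsule, picked by symbol from the 41079 genes of the deposited tables. They comprise 11 transcription factors, 4 markers of fibrocytes and mesenchyme, 6 small leucine-rich proteoglycans, 7 genes of elastic fibres and microfibrils, 7 adhesive and matricellular glycoproteins and 4 genes of cartilage and bone matrix. All 39 had counts, and 39 of 39 passed the filter on low counts. The tissue was the organ of Corti, the strip of mouse cochlea that carries the hair cells, micro-dissected on the day of birth (P0), and its total RNA was sequenced after ribosomal RNA had been depleted. The 4 wildtype libraries were set against 4 libraries labelled Prox1 knock-out, whose genotype combines Emx2-cre, a Cre recombinase under control of the Emx2 locus, with floxed Prox1. The labels give no allele for the wildtype animals, no number of animals per library and no statement that each library is a separate animal. The p-values therefore rest on the spread between these samples alone, which may be technical.

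The cochlear duct lies in mesenchyme that condenses around the otic epithelium and forms both the spiral ligament and the cartilage model of the bony otic capsule. Cells that escape condensation become fibrocytes, which lay down a matrix of proteoglycans, elastic microfibrils and glycoproteins and take part in the recycling of potassium from the hair cells. Several of these genes are known from hearing loss, among them Pou3f4, a POU-domain factor of the otic mesenchyme, and Coch, which encodes the fibrocyte protein cochlin. Most of the 39 genes are known from the tissue around the sensory epithelium, and how much of it each dissection held was not measured. In such bulk samples fewer cells of a type and less RNA per cell cannot be told apart.

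The libraries held between 29908965 and 42318233 counts, and each library labelled knockout was shallower than each wildtype library. Prox1, the targeted gene, was higher in the libraries labelled knockout, at 139 ± 5.71 against 111 ± 4.29 counts-per-million (CPM; SD, n = 4 per group). This is not the fall that the label would lead one to look for. Counts are per gene, and whether the floxed part of Prox1 was lost was not tested. The log2 fold change of Prox1, labelled knockout over wildtype, was 0.33 ± 0.05 (SE; adjusted p = 0.0298). Adjusted p-values are those of the quasi-likelihood F test of edgeR after Benjamini-Hochberg adjustment over all tested genes, unless another tool is named, and directions are given for the libraries as labelled. Wildtype libraries 1 and 3 had the highest summed levels of the 39 genes, so log2 fold changes without these 2 libraries are given for the members of the 39 shown by library. Because these 2 were picked for their high sums, leaving them out narrows the difference in summed level by that choice alone. No library labelled knockout was left out to match, so that fit describes dependence on these 2 libraries and tests no cause. The epithelium was present: the adhesion gene Epcam had 178 to 235 CPM and the supporting cell factor Sox2 had 93.1 to 113 CPM across the 8 libraries.

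Several of the 39 genes were abundant in the wildtype dissections. Together the 39 genes took 10138 ± 689.7 CPM (SD, n = 4), or 1.01% of the scaled counts. This sum leans on a few genes, with wildtype means of 2072 CPM for Sparc, 1308 for Otor, 1097 for Fbn2, 899 for Fn1 and 773 for Tnc. Scaled to the exon length of each gene, the highest level belonged to Otor, which encodes otoraplin, a small secreted protein of the inner ear, at 1378 ± 159 CPM per kb (SD, n = 4). Sparc, a collagen-binding glycoprotein gene, came next at 547 ± 43.9 CPM per kb, and the ranges of these 2 genes over the 4 libraries did not overlap with each other or with that of the third gene. From there the order ran through Pou3f4 at 132 ± 10.4, Coch at 113 ± 20.3, the proteoglycan gene Lum at 109 ± 12.5 and Tnc, which encodes tenascin C, at 99.5 ± 5.19 CPM per kb. The ranges of each pair of neighbours among these 4 genes overlapped, while those of Pou3f4 and Tnc, the outer 2, did not. The mesenchymal T-box gene Tbx18 had 76.3 ± 8.10 CPM per kb, the growth factor receptor gene Pdgfra 26.6 ± 1.86 and the forkhead gene Foxc1 39.5 ± 3.79.

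The lowest levels were spread over several groups of genes, with Runx2, Runx1, Acan, Comp, Tnxb, Tbx15 and Mfap5 in descending order at the end. The transcription factor genes Runx2 and Runx1 had 1.77 ± 0.208 and 1.44 ± 0.337 CPM per kb (SD, n = 4). Acan, which encodes aggrecan, the large proteoglycan of cartilage, had 0.964 ± 0.149 CPM per kb. Comp, another cartilage matrix gene, had 0.433 ± 0.0465, and Ibsp, the bone sialoprotein gene, had 2.13 ± 0.315 CPM per kb. Matn1, which encodes the cartilage protein matrilin, was the highest of the 4 cartilage and bone genes at 39.7 ± 3.93 CPM per kb. The tenascin gene Tnxb had 0.430 ± 0.0523, the T-box gene Tbx15 0.182 ± 0.0393 and the microfibril gene Mfap5 0.112 ± 0.0397 CPM per kb. Mfap5 rested on 9 to 21 counts per library and Tbx15 on 16 to 32, whereas Sparc rested on 51339 to 86078.

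**Figure D1:**
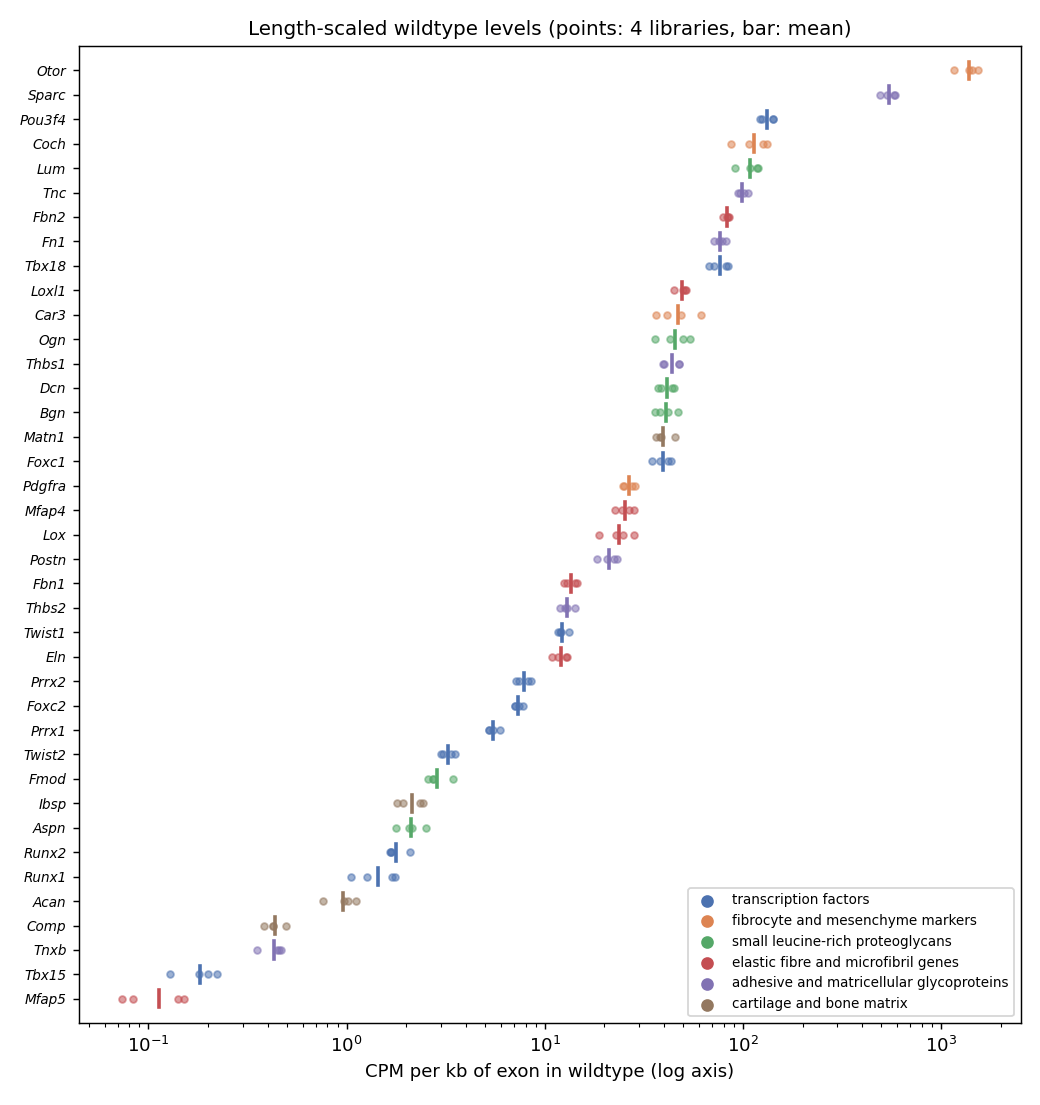
Level of each of the 39 genes in wildtype, in CPM per kb of exon on a log axis; points are the 4 libraries, bars their mean, and colours the group of genes. Otor and Sparc stand above the other genes, and Comp, Tnxb, Tbx15 and Mfap5 lie below the rest.

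Promoters are shown for 3 genes on which the results turn, namely Otor for its level, Thbs2 for the smallest p among the 39 and Matn1 as the abundant cartilage gene. They are RefSeq sequences on GRCm38.p6, an older build than that of the authors, and 25 of the 39 symbols had an entry. Each line gives the 250 bases before the annotated start, 5′ to 3′ on the strand of the gene. Capitals mark matches on either strand to TATAAA (the TATA box), TGTGGT (the core bound by Runx factors), AGGTGT (a T-box motif), GTAAACA (a forkhead core) and GGGCGG (the GC box). The windows are chr2:143078143-143078392 on the plus strand for Otor, chr17:14694263-14694512 on the minus strand for Thbs2 and chr4:130944135-130944384 on the plus strand for Matn1.
Otor: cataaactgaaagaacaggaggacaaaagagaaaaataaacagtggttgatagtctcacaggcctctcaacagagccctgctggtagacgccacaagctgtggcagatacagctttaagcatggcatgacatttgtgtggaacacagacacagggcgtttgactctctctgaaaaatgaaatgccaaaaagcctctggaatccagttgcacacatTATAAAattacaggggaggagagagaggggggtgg
Thbs2: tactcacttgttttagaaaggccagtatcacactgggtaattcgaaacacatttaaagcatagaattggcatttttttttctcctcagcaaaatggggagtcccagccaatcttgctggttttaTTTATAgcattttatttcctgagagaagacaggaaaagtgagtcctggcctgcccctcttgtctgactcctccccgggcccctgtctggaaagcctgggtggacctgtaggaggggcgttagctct
Matn1: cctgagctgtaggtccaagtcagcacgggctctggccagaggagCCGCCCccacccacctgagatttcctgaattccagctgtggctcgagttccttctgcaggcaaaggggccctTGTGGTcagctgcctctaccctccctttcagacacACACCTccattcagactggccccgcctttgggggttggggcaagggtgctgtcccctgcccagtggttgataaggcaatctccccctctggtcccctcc
In Otor the TATA match began at -35 relative to the start, and in Thbs2 at -126 on the other strand. The RUNX core, the T-box motif and the GC box of Matn1 began at -134, -99 and -206, and none of these matches overlapped another. The bases just after the start were found in a GENCODE M21 transcript for Matn1 and not for Otor or Thbs2, so the starts of the latter are those of RefSeq alone. Over the 25 promoters, TATAAA was found in 7, against 3504 of 27025 promoters in all, and GGGCGG in 10 (40%), against 32.9% of all. TGTGGT was found in 5, against 14.2% of all, and AGGTGT in 4, against 3241 of 27025. GTAAACA was found in 0 of the 25 and in 3.09% of all. A match is a run of letters and not a shown binding site.

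The design sets wildtype against libraries in which Prox1 was to be deleted, and the 39 genes were read out of that comparison. Of the 39, 0 passed the threshold of an adjusted p of 0.05 over all 20581 tested genes (edgeR). The share of all tested genes that passed was 0.0923%, with 0.0583% lower and 0.034% higher. By size the 39 genes leaned low: 37 had a log2 fold change below 0 against 50% of all tested genes, and their median was -0.13 against 0.00 over all tested genes. At an unadjusted p under 0.05 there were 11 lower and 0 higher, where the shares over all tested genes were 2.78% and 4.76%. In 3 of the 39, Car3, Thbs2 and Foxc2, each wildtype library lay above each library labelled knockout, which held for 1.62% of all tested genes. The reverse, each wildtype library below each library labelled knockout, held for 0 of the 39 and for 2.07% of all tested genes. The genes were listed with earlier results of these libraries known, and the counts are given as a description.

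Most of the highest values came from 2 libraries. Wildtype library 1 was the highest of the 8 libraries for 18 of the 39 genes and wildtype library 3 for 9, while wildtype libraries 2 and 4 were highest for 2 each. Within wildtype, library 2 was the lowest for 18 genes and library 4 for 14. Among the libraries labelled knockout, library 4 was the highest of its group for 21 genes, library 1 the lowest for 16 and library 3 the lowest for 13. Summed over the 39 genes, wildtype libraries 1 to 4 had 10693, 9402, 10758 and 9699 CPM, and the libraries labelled knockout 1 to 4 had 9280.4, 9181, 8927 and 9647 CPM. The groups overlapped, since wildtype library 2 lay below library 4 labelled knockout.

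Without wildtype libraries 1 and 3, 31 of the 39 genes lay below 0, the median was -0.067, and 4 had an unadjusted p under 0.05, namely Thbs2, Car3, Foxc2 and Eln, where 1.63% of all tested genes were lower at that level. Of the 10 markers of stria vascularis and melanocytes, 8 were tested and 7 lay below 0, against 50% of all tested genes, with a median of -1.30. At an unadjusted p under 0.05, 6 were lower and 0 higher (edgeR), against 2.78% and 4.76% of all tested genes, and 0 passed. The summed level of the 10 markers was 148, 105, 116 and 84.7 CPM in wildtype libraries 1 to 4 against 69.2 to 82.3 CPM in the libraries labelled knockout. Each wildtype library lay above those values, and wildtype library 2 came nearer to library 3 than library 1 did. Kcnj10 made up 47.3 of the 84.7 CPM in wildtype library 4. In library 1 labelled knockout it made up 33.1 of 72.2 CPM. Without Kcnj10, wildtype library 4 falls below that library. Of the 8 tested markers, 2 had groups that did not overlap, Pmel and Kcne1. Dct, Tyr, Pmel, Kcne1 and Esrrb fell in the order of wildtype libraries 1, 3, 2 and 4. In wildtype library 4, Tyr (0.119 CPM) and Esrrb (3.29 CPM) were lowest of all 8 libraries. With the mean log2 CPM of the stria and melanocyte markers as a covariate, 24 of the 39 genes lay below 0, with a median of -0.055. Since the level of these markers itself differed between the groups, the covariate takes up part of the genotype difference. The fit with this covariate therefore cannot tell the 2 apart. In that fit 4 genes were lower at an unadjusted p under 0.05 (Thbs2, Eln, Foxc2 and Matn1) and 1 was higher (Coch), against 1.54% and 1.59% of all tested genes. The 6 red cell markers summed to between 1774 and 4058 CPM in wildtype and between 1425 and 2578 CPM in the libraries labelled knockout. The 10 epithelial markers summed to 1683 to 1890.1 CPM in wildtype against 1570.3 to 1842 CPM, and 6 of them lay below 0. Of the 10 endothelial and pericyte markers 9 lay below 0, at 462 to 533 CPM against 454 to 492 CPM. At an unadjusted p under 0.05 (edgeR), 5 of these were lower and 1 was higher. At that level 3 of the 6 red cell markers and 1 of the 10 epithelial markers were lower, and 0 of either were higher. The shares over all tested genes were 2.78% lower and 4.76% higher. Median log2 fold changes were -0.16 for endothelium and pericytes, -0.46 for red cells and -0.06 for epithelium. The 4 Y-linked genes listed all lay above 0, at 81.8 to 136 CPM in wildtype against 126 to 160.1 CPM, with the groups overlapping. All 4 were higher at an unadjusted p under 0.05 (edgeR), against 4.76% of all tested genes. The sex of the animals was not taken into any fit. No marker of these 5 lists was at 0 in every library, and their part in the result was not tested.

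**Figure D2:**
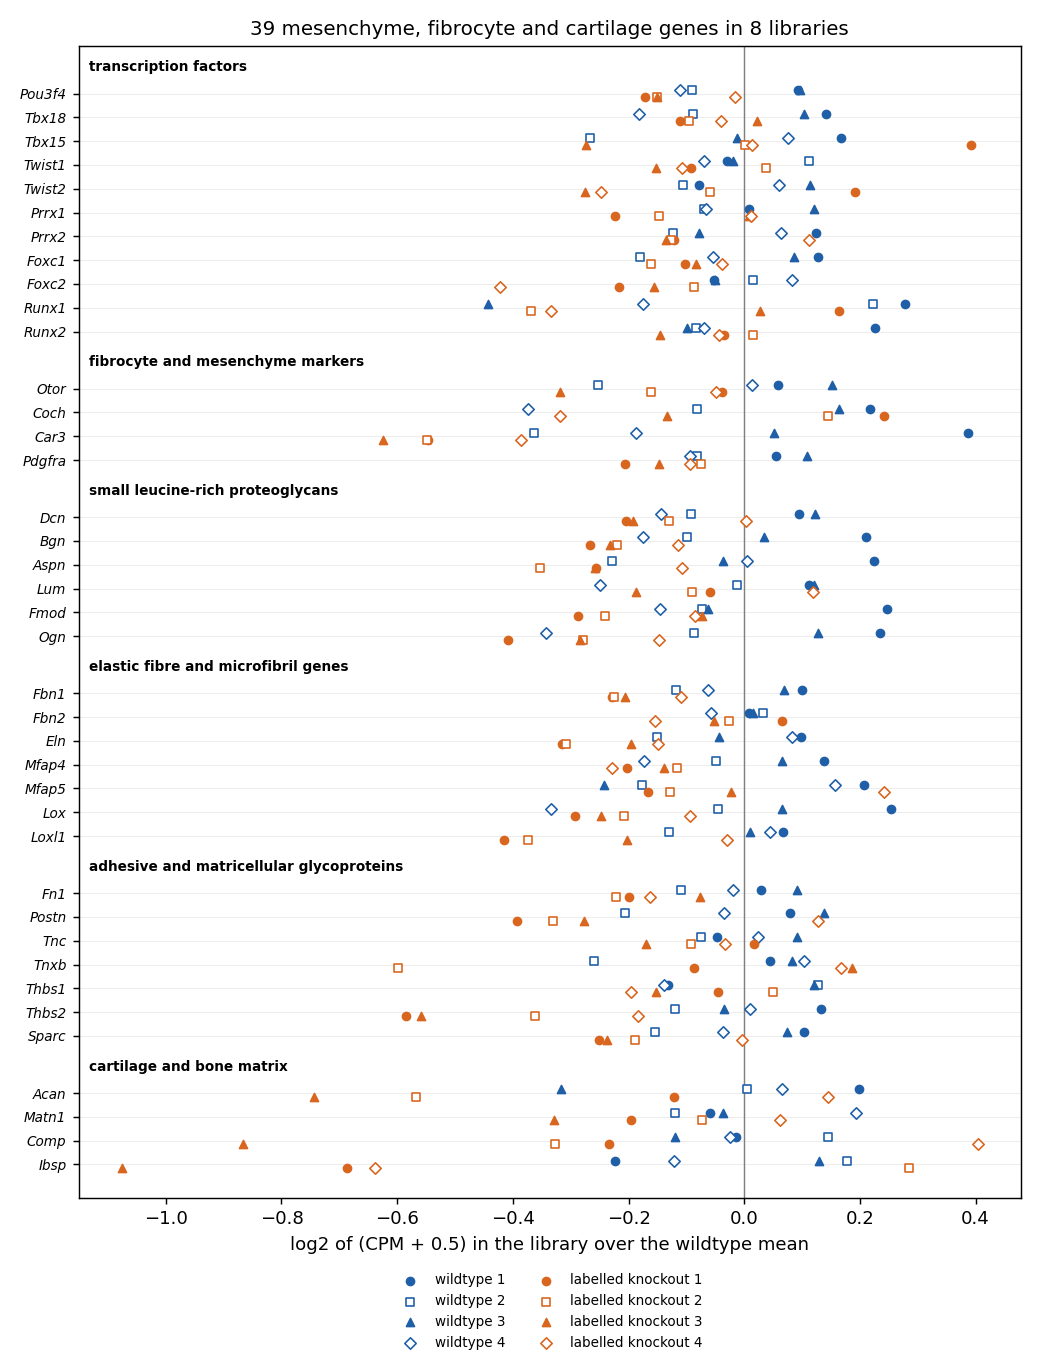
Each row is a gene and each point a library, placed by the log2 ratio of its CPM plus 0.5 to the wildtype mean; blue points are wildtype and orange points the libraries labelled knockout. Wildtype libraries 1 and 3 (filled blue) lie to the right in most rows, and wildtype libraries 2 and 4 (open blue) overlap with the orange points.

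Among the 11 transcription factors, 10 lay below 0 and none passed. Foxc2, a forkhead gene of mesenchyme and vessel walls, had 19.3, 20.2, 19.3 and 21.2 CPM in wildtype libraries 1 to 4 and 17.2, 18.8, 17.9 and 14.8 CPM in the libraries labelled knockout 1 to 4. The groups did not overlap, and library 4 labelled knockout was lowest. The log2 fold change was -0.22 ± 0.08 (SE; adjusted p = 0.621, edgeR). The exact permutation test gave p = 0.0286 (two-sided, 70 assignments), the smallest this design allows. Any gene whose groups do not overlap gets this value, so it adds nothing to the lack of overlap. Foxc2 had its wildtype maximum in library 4 and so did not follow the rise of most other genes in wildtype libraries 1 and 3: without these 2 libraries its log2 fold change was -0.27, and with the stria score -0.31.

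Pou3f4, the most abundant of the factors, had 414, 364, 415 and 359 CPM in wildtype and 344, 349, 349 and 383 CPM in the libraries labelled knockout. Wildtype libraries 1 and 3 were high and the other 6 lay together, with library 4 labelled knockout above wildtype libraries 2 and 4. Its log2 fold change was -0.12 ± 0.06 (SE), with a 95% interval from -0.26 to 0.02, and it was -0.020 without wildtype libraries 1 and 3. Tbx18, whose loss disturbs fibrocyte development, had -0.05 ± 0.07 and Foxc1, a forkhead paralogue of Foxc2, -0.10 ± 0.07. The paired-related homeobox genes Prrx1 and Prrx2, which mark limb and head mesenchyme, had -0.08 ± 0.07 and -0.07 ± 0.09. The basic helix-loop-helix genes Twist1 and Twist2 had -0.08 ± 0.07 and -0.09 ± 0.12. For Tbx15 the interval ran from -0.54 to 0.72, on 16 to 32 counts per library. Exons of Twist2 overlap those of Gm29100 on the other strand for 46.5% of their length in the GENCODE M21 annotation, and those of Tbx18 overlap D030062O11Rik for 20.6%. The strand setting used for counting is not known here, so reads of such a pair may have been counted for either gene.

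The Runx genes, which direct blood and sensory neuron (Runx1) and bone (Runx2) development, each had a pattern of their own. Runx1 had 21.1, 20.3, 12.6 and 15.3 CPM in wildtype libraries 1 to 4 and 19.4, 13.3, 17.6 and 13.6 CPM in the libraries labelled knockout 1 to 4. The highest values of Runx1 were in wildtype libraries 1 and 2 and libraries 1 and 3 labelled knockout, and its lowest was in wildtype library 3, where most of the 39 genes were high. The summed level of 7 markers of spiral ganglion neurons was 247, 290.3, 157 and 223 CPM in wildtype and 267, 191, 232 and 196 CPM in the libraries labelled knockout, so the same 4 libraries were highest and wildtype library 3 was lowest in both. The log2 fold change of Runx1 was -0.12 ± 0.17, and -0.16 without wildtype libraries 1 and 3. Runx2 was highest in wildtype library 1, at 18.4 CPM, against 14.1 to 15.8 CPM in the other 7, with a log2 fold change of -0.05 ± 0.09 that was 0.033 without wildtype library 1. The comparison of Runx1 with the neuron markers was chosen after the values were seen, and the part of neurons in it was not tested.

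Of the 4 markers of fibrocytes and mesenchyme, Car3 had the largest difference and Coch the smallest. Car3, which encodes carbonic anhydrase III, an enzyme of fibrocytes and muscle, had 176, 105, 139.6 and 118 CPM in wildtype and 92.1, 91.9, 87.2 and 103 CPM in the libraries labelled knockout. Wildtype library 1 was far above the rest, and wildtype library 2 lay just above library 4 labelled knockout. The log2 fold change was -0.53 ± 0.13 (SE; adjusted p = 0.366, edgeR), and the two-sided exact permutation test gave p = 0.0286. It was -0.37 without wildtype library 1, -0.25 without wildtype libraries 1 and 3, and -0.19 with the covariate from the stria markers. Markers of skeletal muscle, where Car3 is also expressed, summed to 4.19, 6.47, 2.43 and 1.28 CPM in wildtype libraries 1 to 4 and 2.78, 1.01, 1.35 and 1.86 CPM in the libraries labelled knockout. These muscle markers were highest in wildtype library 2, the lowest wildtype library for Car3. Of the 6 listed, 2 were tested and lay below 0 as Car3 did, Acta1 at -1.10 ± 0.51 and Myh8 at -1.58 ± 0.52 (SE). The part of muscle in the difference was not tested. Car3 lies among other carbonic anhydrase genes, next to Car1 and Car2 in the RefSeq order.

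Coch had 395, 321, 380.4 and 262 CPM in wildtype and 402, 375, 309.5 and 272 CPM in the libraries labelled knockout. The groups covered the same range, with the lowest value in wildtype library 4 and the next lowest in library 4 labelled knockout. The log2 fold change was 0.00058 ± 0.14, with a 95% interval from -0.30 to 0.30. Coch was 1 of the 2 genes not below 0, the other being Tbx15, and the stria covariate moved its log2 fold change to 0.40 (unadjusted p = 0.0194 and adjusted p = 0.999, edgeR). Otor had 1362, 1097, 1453 and 1319.5 CPM in wildtype and 1273, 1169, 1049 and 1265 CPM in the libraries labelled knockout, which overlapped, at -0.14 ± 0.09. Pdgfra, the receptor gene of mesenchymal progenitors, had 277, 252, 287 and 249.6 CPM in wildtype and 231, 253, 240.4 and 249.5 CPM in the libraries labelled knockout, at -0.13 ± 0.06 (unadjusted p = 0.0481, adjusted p = 0.647, edgeR). The top of the second group reached into the first for both genes. Without wildtype libraries 1 and 3 the log2 fold change was -0.043 for Pdgfra, -0.024 for Otor and 0.22 for Coch.

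**Figure D3:**
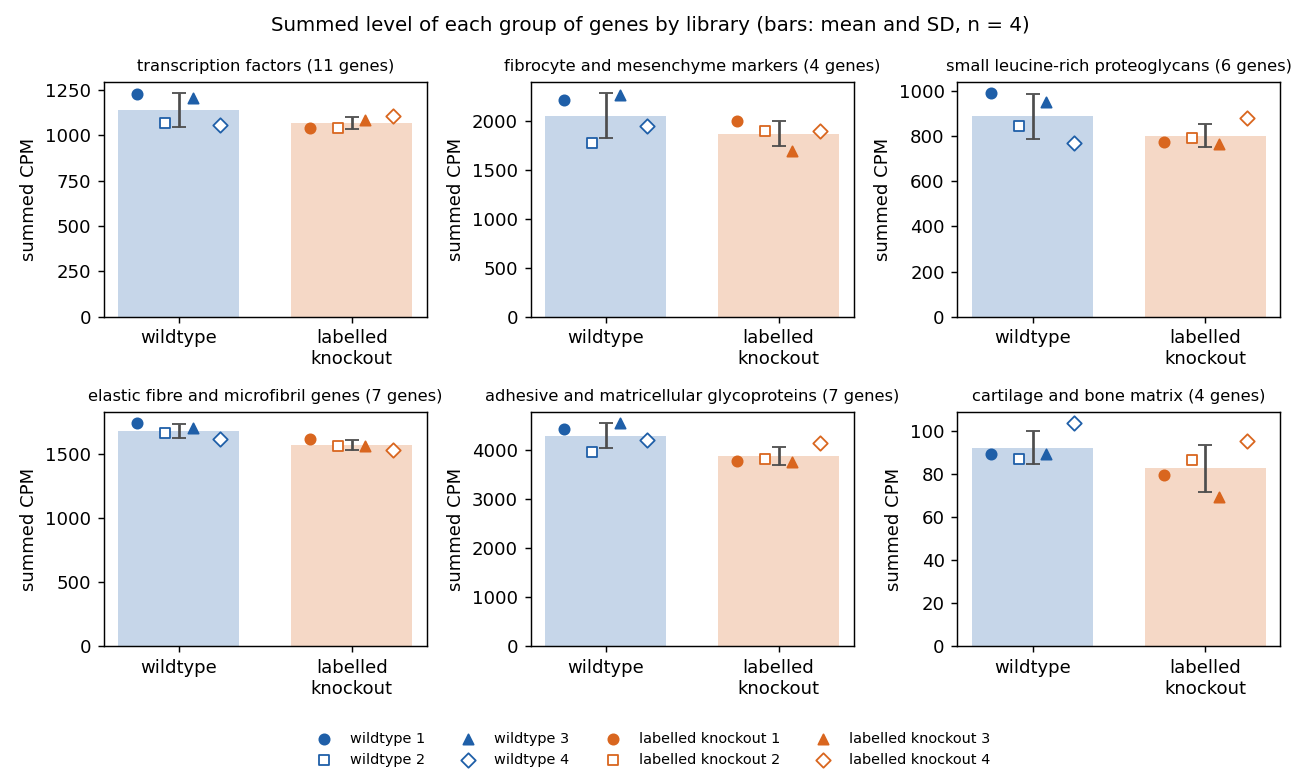
Summed CPM of each group of genes in each library; bars are means with SD (n = 4), points are libraries with the same symbols in both groups, and each axis starts at 0. In 5 of the 6 panels the 2 highest points are wildtype libraries 1 and 3, and in the panel of cartilage and bone matrix the highest points of both groups are library 4.

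Small leucine-rich proteoglycans bind collagen fibrils and set their spacing. All 6 had values below 0, with a median of -0.19, and none passed. Bgn, which encodes biglycan, had 288, 232, 255 and 221 CPM in wildtype and 207, 214, 212 and 230.0 CPM in the libraries labelled knockout, at -0.21 ± 0.08 (adjusted p = 0.618, edgeR). Ogn, the osteoglycin gene, had 138, 110.3, 128 and 92.3 CPM in wildtype and 88.1, 96.5, 96.1 and 106 CPM in the libraries labelled knockout, at -0.28 ± 0.11. In both, wildtype library 4 lay below library 4 labelled knockout, so the groups overlapped. Without wildtype libraries 1 and 3 the log2 fold changes of Bgn and Ogn were -0.072 and -0.070, and with the stria score 0.0046 and 0.060.

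Lum, the lumican gene and the most abundant of the 6 by CPM, had 288, 265, 291 and 224 CPM in wildtype and 256, 251, 235 and 290.0 CPM in the libraries labelled knockout. Library 4 labelled knockout was as high as wildtype libraries 1 and 3, and the log2 fold change was -0.05 ± 0.09, and 0.076 without those 2 wildtype libraries. Dcn, the decorin gene, had -0.13 ± 0.07, Fmod, the fibromodulin gene, -0.18 ± 0.11 and Aspn, the asporin gene, -0.27 ± 0.14. The genes of this family lie in clusters. Dcn and Lum are followed in the RefSeq order by Kera and Epyc, of which Kera had 0.0297 to 0.179 CPM and was not tested and Epyc had 701 to 873 CPM, at -0.03 ± 0.08. Aspn and Ogn lie on either side of Omd, at -0.01 ± 0.20, with Ecm2 before them, at -0.13 ± 0.15. Fmod follows Prelp, at -0.23 ± 0.11.

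Elastic fibres are built from elastin on a scaffold of fibrillin microfibrils and are cross-linked by lysyl oxidases. All 7 genes of this group lay below 0, with a median of -0.19. Of the 7, 4 had an unadjusted p under 0.05 (edgeR), where 2.78% of all tested genes were lower at that level. Eln, the elastin gene, had 105, 88.0, 94.8 and 104 CPM in wildtype and 78.5, 78.9, 85.3 and 88.1 CPM in the libraries labelled knockout, so that only wildtype library 2 and library 4 labelled knockout met. The log2 fold change was -0.24 ± 0.07 (SE; adjusted p = 0.44, edgeR), and the two-sided exact permutation test gave p = 0.0571. Eln depended little on wildtype libraries 1 and 3, with -0.21 without them and -0.25 with the stria score.

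Fibrillins form the core of microfibrils. Fbn1 had 175, 151, 172 and 157 CPM in wildtype and 139.6, 140.0, 142 and 152 CPM in the libraries labelled knockout, at -0.19 ± 0.06 (adjusted p = 0.56, edgeR) and -0.10 without wildtype libraries 1 and 3. Fbn2, the fibrillin gene of developing tissue, had 1103, 1122, 1108 and 1054 CPM in wildtype and 1147, 1077, 1058 and 986 CPM in the libraries labelled knockout, at -0.04 ± 0.06. Its highest value was in library 1 labelled knockout, the groups overlapped, and a 95% interval from -0.18 to 0.10 bounds the difference, which was -0.029 without wildtype libraries 1 and 3. Whether Fbn1 and Fbn2 differ in their change was not tested. Exons of Fbn1 overlap Gm9913 on the other strand for 20.1% of their length.

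Among the cross-linking enzymes, Loxl1, which is needed for elastic fibre upkeep, had 170.1, 148, 164 and 168 CPM in wildtype and 122, 125, 141 and 159 CPM in the libraries labelled knockout, at -0.25 ± 0.08 (adjusted p = 0.57, edgeR). Libraries 1 to 3 labelled knockout lay below every wildtype library and library 4 lay among them. Lox had 135, 109.6, 118 and 89.7 CPM in wildtype and 92.3, 97.9, 95.3 and 106 CPM in the libraries labelled knockout, and its lowest value was in wildtype library 4. Its log2 fold change was -0.21 ± 0.10, and -0.028 without wildtype libraries 1 and 3, a fit in which Loxl1 had -0.21. Mfap4, a microfibril-associated gene, had 54.0, 47.4, 51.3 and 43.4 CPM in wildtype and 42.5, 45.2, 44.5 and 41.7 CPM in the libraries labelled knockout, at -0.17 ± 0.07 and -0.06 without those 2 wildtype libraries. Mfap5 had -0.02 ± 0.35.

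Adhesive and matricellular glycoproteins link cells to the matrix and tune its signals. All 7 lay below 0, with a median of -0.16. Thbs2, which encodes thrombospondin 2, a matricellular protein of fibroblasts, had 99.1, 83.1, 88.1 and 91.0 CPM in wildtype and 60.1, 70.2, 61.1 and 79.5 CPM in the libraries labelled knockout. The groups did not overlap, and library 4 labelled knockout came nearest to wildtype. Mean levels were 90.3 ± 6.66 CPM for wildtype and 67.7 ± 9.07 CPM for labelled knockout (SD, n = 4 each), 1.33-fold higher in wildtype. The log2 fold change was -0.42 ± 0.09 (SE), with a 95% interval from -0.61 to -0.23, an unadjusted p of 0.000457 and an adjusted p of 0.209 (edgeR). The two-sided exact permutation test gave p = 0.0286.

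Thbs2 had the smallest p of the 39 genes and had a log2 fold change near this value in other fits. It was -0.36 without wildtype libraries 1 and 3, and the stria score gave -0.38. Without library 4 labelled knockout the log2 fold change was -0.50 and the adjusted p was 0.0250 (edgeR), which passed. Over the 8 fits with 1 library left out it ran from -0.50 to -0.36, and the adjusted p of edgeR from 0.0250 to 0.747. DESeq2 on the same counts called Thbs2 (-0.42 ± 0.10, adjusted p = 0.00729) and Car3 (-0.53 ± 0.13, adjusted p = 0.0213) lower, 2 of the 38 with an adjusted p in that fit, against 0.253% of all 19382 such genes. The authors' deposited table, also from DESeq2, gives Thbs2 an adjusted p of 0.00653 and Car3 one of 0.0159. These are the 2 that lie under 0.05 of the 38 listed genes with an adjusted p there. Over all 19111 genes with one, 0.45% lay under 0.05, counted in either direction, unlike the share of lower calls above. Thbs1, the paralogue, had 242, 289.7, 288 and 241 CPM in wildtype and 257, 275, 238 and 231 CPM in the libraries labelled knockout, at -0.083 ± 0.08 and -0.084 without wildtype libraries 1 and 3. Whether the 2 thrombospondin genes differ in their change was not tested. Thbs2 lies next to Smoc2, another matricellular gene, which had -0.14 ± 0.09.

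**Figure D4:**
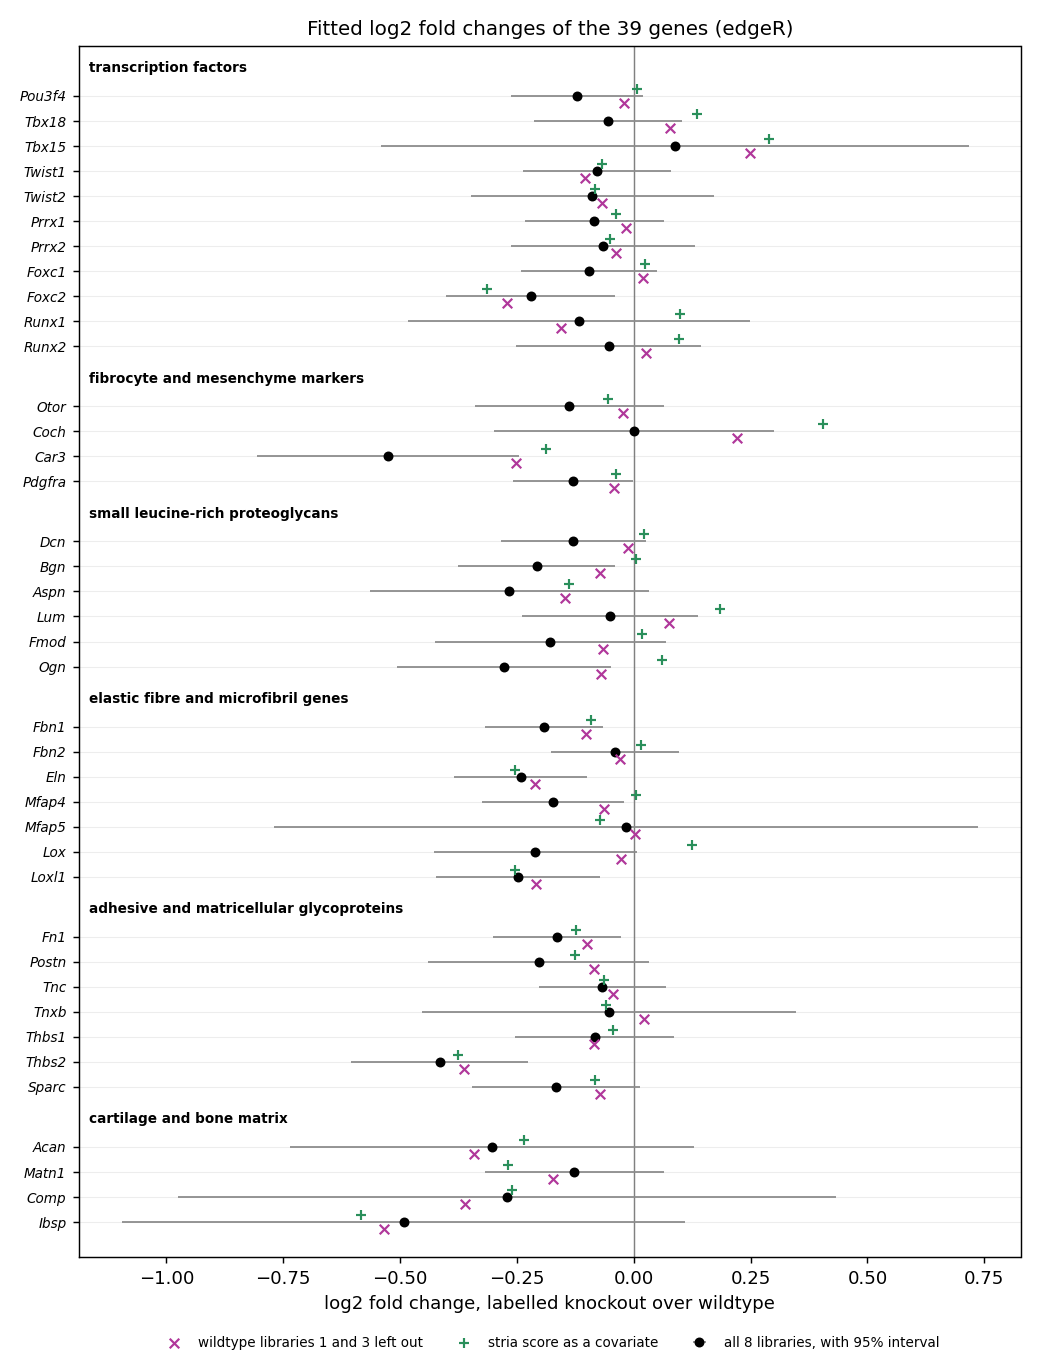
Log2 fold change of each gene, labelled knockout over wildtype, from edgeR, with its 95% interval (black, all 8 libraries), without wildtype libraries 1 and 3 (crosses) and under the stria covariate (plus signs). Thbs2, Eln, Loxl1 and Foxc2 keep values at or below -0.20 in all 3 fits, whereas Lox, Ogn, Lum and Coch move to the right.

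Sparc had 2226, 1861, 2181 and 2019 CPM in wildtype and 1741, 1818, 1758 and 2066 CPM in the libraries labelled knockout, at -0.17 ± 0.08. Library 4 labelled knockout lay within the wildtype range and the other 3 below it, and without wildtype libraries 1 and 3 the log2 fold change was -0.072. Fn1, the fibronectin gene, had 918, 833, 958 and 887 CPM in wildtype and 784, 771, 853 and 803 CPM in the libraries labelled knockout, at -0.16 ± 0.06 (adjusted p = 0.622, edgeR). Its groups met only between wildtype library 2 and library 3 labelled knockout, and without wildtype libraries 1 and 3 it had -0.10. Postn, the periostin gene, had -0.20 ± 0.11, with 200.3 CPM in library 4 labelled knockout and 139 to 151 CPM in the other 3. Tnc and Tnxb had -0.07 ± 0.06 and -0.05 ± 0.18.

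The 4 genes of cartilage and bone matrix had a median of -0.29, but with wide errors. Of the 4, 0 had an unadjusted p under 0.05 (edgeR), where 2.78% of all tested genes were lower and 4.76% higher at that level. Matn1 had 76.2, 73.1, 77.5 and 90.9 CPM in wildtype and 69.3, 75.5, 63.1 and 82.9 CPM in the libraries labelled knockout, with library 4 the highest of each group. Its log2 fold change was -0.13 ± 0.09, and -0.17 without wildtype libraries 1 and 3. Ibsp had 3.70, 5.04, 4.86 and 4.00 CPM in wildtype and 2.54, 5.47, 1.82 and 2.65 CPM in the libraries labelled knockout, at -0.49 ± 0.28 and -0.54 without those 2 wildtype libraries, and library 2 labelled knockout was the highest of all 8. Acan had -0.30 ± 0.20 and Comp -0.27 ± 0.32. Comp ranged from 0.479 to 1.86 CPM among the libraries labelled knockout, and the 95% interval of its log2 fold change ran from -0.98 to 0.43.

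Of 109 further genes of the same tissues and matrix, listed for comparison, 97 were tested and 0 passed in either direction (edgeR). Their median log2 fold change was -0.09, and 69 lay below 0, against 50% of all tested genes. At an unadjusted p under 0.05, 18 were lower and 1 was higher (edgeR), where the shares over all tested genes were 2.78% and 4.76%. The smallest p in the list belonged to Nid1, which encodes nidogen 1, a linker of basement membranes, with 379.7, 351, 346 and 345 CPM in wildtype and 291, 307, 297 and 318 CPM in the libraries labelled knockout. Its groups did not overlap, and the log2 fold change was -0.23 ± 0.05 (adjusted p = 0.326, edgeR). Nid2, its paralogue, had -0.22 ± 0.06, chosen after its value was seen. DESeq2 called 2 of the 95 with an adjusted p in its fit lower, against 0.253% of all genes, namely Nid1 (adjusted p = 0.0136) and Mgp, the matrix Gla protein gene (-0.56 ± 0.14, adjusted p = 0.0279).

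The further lists differed in how far they leaned, beside 50% of all tested genes below 0. Among 19 tested regulators of mesenchyme, 10 lay below 0 and 9 above, with a median of -0.01, and the smallest p belonged to Tbx3 (-0.30 ± 0.10). Foxf2, the neighbour of Foxc1 in the RefSeq order, had -0.08 ± 0.06. Elastic fibre and microfibril genes had 12 of 16 below 0, with Loxl2, another lysyl oxidase gene, at -0.25 ± 0.08. Fibrocyte and fibroblast genes had 11 of 15 below 0, with Mgp at the smallest p, and proteoglycans and hyaluronan binders 13 of 14, with Sdc1 at -0.24 ± 0.09. Adhesive genes had 11 of 15 below 0 and cartilage and bone genes 12 of 18, among which Sox5, a partner of Sox9 in cartilage, had the smallest p at 0.20 ± 0.06. Otos, an otospiralin gene of mature fibrocytes, had 2.00 to 5.08 CPM over the 8 libraries, and the osteoblast factor gene Sp7 had 2.12 to 3.02 CPM.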

How the data were processed

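The authors deposited raw counts per gene of 8 libraries (4 wildtype, 4 labelled knockout), per the file headers and the whole-number values. Tools named in the submitters' processing notes are HISAT2 2.2.1, cutadapt 4.3 and FastQC 0.12.1, with featureCounts and DESeq2 and the build GRCm39. Not given in the sources used here are the annotation and the strand setting. A DESeq2 table was also deposited by the authors, per the file headers, with a mean of normalized counts as a signal, a log2 fold change, a test score, and p-values before and after adjustment.

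Columns were matched to libraries by library name and grouped by title. Of 41079 genes, 20581 passed filterByExpr (minimum count 10) and were scaled by TMM. The quasi-likelihood F test of edgeR 4.0.16 (R 4.3.3) had genotype as its one factor, with Benjamini-Hochberg adjustment over all tested genes and a threshold of 0.05. Single genes also had exact permutation tests on log2 of CPM plus 0.5. Of the 11 members with an unadjusted p under 0.05 (edgeR), those whose groups overlapped had larger exact permutation p-values. These were 0.0571 for Bgn, Fbn1, Eln, Loxl1 and Fn1, 0.0857 for Mfap4, 0.114 for Pdgfra and 0.143 for Ogn. The code was tested on simulated data. Exon lengths and overlaps come from GENCODE M21 (GRCm38), which may differ from the authors' annotation. The stria score is the mean log2 CPM of the stria and melanocyte markers. Alternatives were DESeq2 1.42.0, limma-voom (limma 3.58.1), other scalings and filters, a replicate block, the stria score as a covariate, left-out libraries and gene removals.

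The 39 genes and all lists were chosen with earlier results of these data known. Genes given with every library's value are the 12 with the smallest p and the most abundant of each group, plus Coch, Runx1, Ibsp and Thbs1, chosen after their values were seen. Of the related genes, the one with the smallest p in each list is named, and others were chosen after their values were seen. No pair of libraries in a group agreed within sampling noise (lowest chi-square per degree of freedom 9.85).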

Additional observations from a re-analysis of the deposited data

Results flagged for a closer look

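In groups of 4 libraries, 1 library stood far from the other 3 in 5 of 92 groups examined, and chance flags about 1 in 20. Pou3f4 was at 383 CPM in library 4 labelled knockout, where the other 3 had 344 to 349 CPM. Prrx2 was at 16.6 CPM in library 4 labelled knockout, above 13.9 to 14.1 CPM in the other 3. The summed level of the 7 adhesive and matricellular genes was 4142 CPM in library 4 labelled knockout and 3755 to 3809 CPM in the others. Wildtype library 1 had 18.4 CPM of Runx2, and wildtype libraries 2 to 4 had 14.6 to 14.9 CPM. The summed level of the 4 cartilage and bone matrix genes reached 104 CPM in wildtype library 4, above the 86.8 to 89.5 CPM of wildtype libraries 1 to 3.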

How the results depend on the processing

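Over all genes, 7 were called higher and 12 lower. Higher calls were 12 without a filter, 36 with DESeq2, 3 with the replicate block, 2 without wildtype libraries 1 and 3, 0 under the stria covariate and 2 at an adjusted p of 0.01. Lower calls were 24 without a filter, 49 with DESeq2, 7 without wildtype libraries 1 and 3 and 7 under the stria covariate. Leaving out each library in turn gave 2 to 7 higher calls and 8 to 20 lower calls, with 2 or 3 higher calls where the library left out was wildtype 1 or 3 or labelled knockout 1, 2 or 3, and 20 lower calls where it was labelled knockout 4. Of the 39 genes, 0 were called lower in the fit of all libraries, 1 without a filter (Thbs2), 2 with DESeq2 (Thbs2 and Car3) and 0 to 1 when a library was left out (Thbs2, without library 4 labelled knockout). Of the related genes, 2 were called lower with DESeq2. The members' median log2 fold change was -0.067 in the fit lacking wildtype libraries 1 and 3, -0.055 with the stria score, and lay between -0.17 and -0.12 with 1 library left out. The log2 ratio of their summed CPM was -0.13, and -0.045 without wildtype libraries 1 and 3. The causes were not tested.

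Same-numbered libraries of the 2 groups deviated together in 2 of 4 pairs (r across genes between -0.344 and 0.275), so the replicate number was not taken as a pairing. With the replicate number as a block, 3 genes were called higher and 0 of the 39 lower.

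Under the stria covariate the log2 fold change changed sign, to 0.0074 for Pou3f4, 0.14 for Tbx18, 0.023 for Foxc1, 0.10 for Runx1, 0.097 for Runx2, 0.022 for Dcn, 0.0046 for Bgn, 0.18 for Lum, 0.019 for Fmod, 0.060 for Ogn, 0.015 for Fbn2, 0.0039 for Mfap4 and 0.13 for Lox. Without wildtype libraries 1 and 3 the log2 fold change changed sign, to 0.079 for Tbx18, 0.020 for Foxc1, 0.026 for Runx2, 0.076 for Lum, 0.0032 for Mfap5 and 0.023 for Tnxb. With RLE scaling the log2 fold change changed sign, to -4.1e-05 for Coch. Without a filter the log2 fold change changed sign, to -0.0053 for Coch. With limma-voom the log2 fold change changed sign, to 0.019 for Mfap5. With 1 library left out, the log2 fold change lay as follows, that of Tbx15 between -0.14 and 0.24, that of Runx2 between -0.086 and 0.033, that of Coch between -0.11 and 0.092, that of Mfap5 between -0.24 and 0.17 and that of Tnxb between -0.15 and 0.11.

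None of the genes whose sign differed passed in any fit named here. Mfap5, Tbx15 and Comp rested on 9 to 64 counts per library.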
